A study of Mus musculus with 2 samples.

Results

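The cells described here come from the mouse cortex at postnatal day 5. They carried RNA of Gpr17, of Bcas1 or of both within the oligodendrocyte lineage, without the RNA set of more mature oligodendrocytes. They were chosen from their own counts. A barcode had to hold at least 1000 unique molecular identifiers (UMIs, 1 per captured RNA molecule) and 500 genes, with at most 20% of its UMIs from the mitochondrial genome. It needed at least 1 UMI of Olig1 or Sox10, at least 3 UMIs of Gpr17 and Bcas1 together, and at most 1 detected gene among Mag, Mog, Mobp, Ermn and Enpp6. This gave 2190 cells of 21126 barcodes past the filters, of which 1136 of 10102 were in the Mut library and 1054 of 11024 in the WT library. The levels of these 9 genes are therefore a description of the choice and no result of it.

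The series compared cortex of animals labelled Mut for Katnal2, whose product is related to the microtubule-severing ATPase katanin, with cortex of animals labelled WT. The sources used here give neither the strain and sex of the animals, nor which part of Katnal2 is mutated, nor the gate of the cell sort that preceded the droplets. Each genotype is 1 library of 10x Genomics droplet single-cell sequencing. In the series' own design text a sample has 3 replicates, yet all barcodes within a library end alike, and no cell can be traced to an animal. No test between Mut and WT is possible. Every interval below is an exact 95% interval of counting error alone, and differences between animals, dissections and library preparations lie outside it. For levels and ratios of genes, taken from UMIs summed over cells, the spread between cells lies outside it too, so these intervals are too narrow.

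Oligodendrocytes arise from dividing precursors that carry the growth factor receptor Pdgfra and the proteoglycan Cspg4 on their surface. On leaving the cell cycle a precursor passes through a short committed stage, marked by the G protein-coupled receptor Gpr17, before it becomes a newly formed oligodendrocyte that makes Enpp6, Mbp and, later, Mag and Mog. In mouse cortex the first postnatal week lies early in this sequence. Sox10 and the Olig factors are transcription factors of the whole lineage, Bcas1 encodes a protein of early myelinating cells, and Neu4 a sialidase of the committed stage.

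The Mut library held 97891513 UMIs and the WT library 93664707, with medians of 7625.5 and 6446 per kept barcode. The Gpr17 and Bcas1 cells had medians of 6687 UMIs and 3102.5 genes in Mut, against 6436 and 2976 in WT, and their median mitochondrial share was 3.29% and 4.01%. Summed over cells they gave 8925978 UMIs in Mut and 8005079 in WT. Levels below are sums over all cells of a class, in counts per 1000000 UMIs (CPM), and ratios of genes are taken between such sums. A doublet caller marked 9.42% of them in Mut and 10.4% in WT, where it marked 8.08% and 8.82% of all kept barcodes. The 2 libraries shared 39 kept barcode sequences, and no sequence belonged to the chosen cells in both. Cells with Xist and no Y-linked UMI (female) made up 69.1% of the sexed members in Mut and 47.5% in WT, so values are also given within each sex.

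The label of committed precursor was met by few of the chosen cells. Most of them carried precursor RNA at the full level and had little of the committed or later genes. At least 3 UMIs of Pdgfra and Cspg4 together were found in 92.4% of them in Mut (90.7 to 93.9) and in 89.5% in WT (87.5 to 91.3). Their summed Pdgfra level was 1223 CPM in Mut and 1153 in WT, next to 1212 and 1128 CPM in resting precursors, the lineage cells with at least 3 UMIs of Pdgfra and Cspg4, at most 2 of Gpr17 and Bcas1, at most 1 of the 5 late genes and at most 2 UMIs over 8 mitosis genes. The 8 mitosis genes were Mki67, Top2a, Cdk1, Cenpf, Ube2c, Birc5, Tpx2 and Nusap1. Cspg4 stood at 431 and 384 CPM in Mut and WT members, against 454 and 445 in resting precursors. Newly formed oligodendrocytes, taken as lineage cells with at least 2 of the 5 late genes, had 22.4 and 15.1 CPM of Pdgfra and 8.24 and 19.8 CPM of Cspg4. For this reason the cells are called Gpr17 and Bcas1 cells, or members, and not committed precursors. The name stands for the summed count of both genes, which either gene could meet alone.

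The selecting genes ranked between the stages. Gpr17 was at 659 CPM in Mut members and 607 in WT members, between resting precursors (147 and 143 CPM) and newly formed oligodendrocytes (1043 and 1196 CPM). Bcas1 was at 246 and 300 CPM in members, 45.1 and 47.6 CPM in resting precursors and 3016 and 2950 CPM in newly formed oligodendrocytes. Both were higher than in resting precursors and lower than in newly formed oligodendrocytes in each library. With each cell thinned to 2000 UMIs, a Gpr17 UMI was found in 73.3% of Mut members and 67.7% of WT members. A Bcas1 UMI was found in only 28.7% and 33.0% of them. Sox10, found in every stage, was at 245 and 219 CPM in members and 198 and 186 CPM in resting precursors. The marker Neu4, which the rule did not use, had 47.3 CPM in Mut members and 60.5 CPM in WT members. It had 14.8 and 18.5 CPM in resting precursors and 246 and 318 CPM in newly formed oligodendrocytes. With each cell thinned to 2000 UMIs, a Neu4 UMI was found in 8.50% of Mut members and 10.6% of WT members, in 4.15% and 3.53% of resting precursors, and in 0.311% and 0% of microglia of the same libraries, which should lack it (0 of 592 WT microglia, which allows a share of up to 0.507%). At this depth Neu4 RNA was thus detected in a minority of members, though in a larger share of them than of resting precursors or microglia.

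Inside the chosen cells the change came at the upper end of the Gpr17 and Bcas1 count. Cells with 3 or 4, 5 to 9, 10 to 19 and at least 20 such UMIs numbered 502, 488, 94 and 52 in Mut and 567, 364, 62 and 61 in WT. Pdgfra stood at 1217, 1348, 1213 and 186 CPM in these 4 ranges in Mut, and at 1157, 1317, 1320 and 46.1 CPM in WT. Bmp4, a secreted growth factor of the BMP family, went the other way with 3.05, 9.01, 57.9 and 598 CPM in Mut and 5.62, 11.6, 63.5 and 680 CPM in WT. The first 3 ranges were near each other for Pdgfra, and the last stood apart in both libraries. Mbp, the myelin basic protein, had 35.5, 36.5, 57.9 and 975 CPM in Mut and 32.4, 45.4, 73.3 and 842 CPM in WT. Sirt2, a deacetylase abundant in oligodendrocytes, had 200, 202, 339 and 2381 CPM in Mut and 190, 210, 420 and 2824 CPM in WT. Myrf, the transcription factor of myelin genes, had 4.43, 8.76, 20.8 and 142 CPM in Mut and 4.09, 6.14, 24.4 and 93.9 CPM in WT. All 3 were low up to 19 such UMIs and high from 20 on. Nkx2-2, a homeobox factor of differentiation, was less steep, with 61.0, 72.3, 111 and 305 CPM in Mut and 63.3, 66.5, 111 and 219 CPM in WT. Hes5, an effector of Notch signalling, was lower in the last range, with 531, 510, 376 and 202 CPM in Mut and 438, 443, 340 and 131 CPM in WT. Ccnd1, which encodes cyclin D1, was lower in the same order, with 413, 379, 240 and 105 CPM in Mut and 407, 330, 291 and 88.4 CPM in WT. The median depth of the 4 ranges was 6187.5, 7020, 7912 and 7652.5 UMIs in Mut and 5957, 6928, 9905.5 and 8213 in WT, and its part in these differences was not tested.

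**Figure D1:**
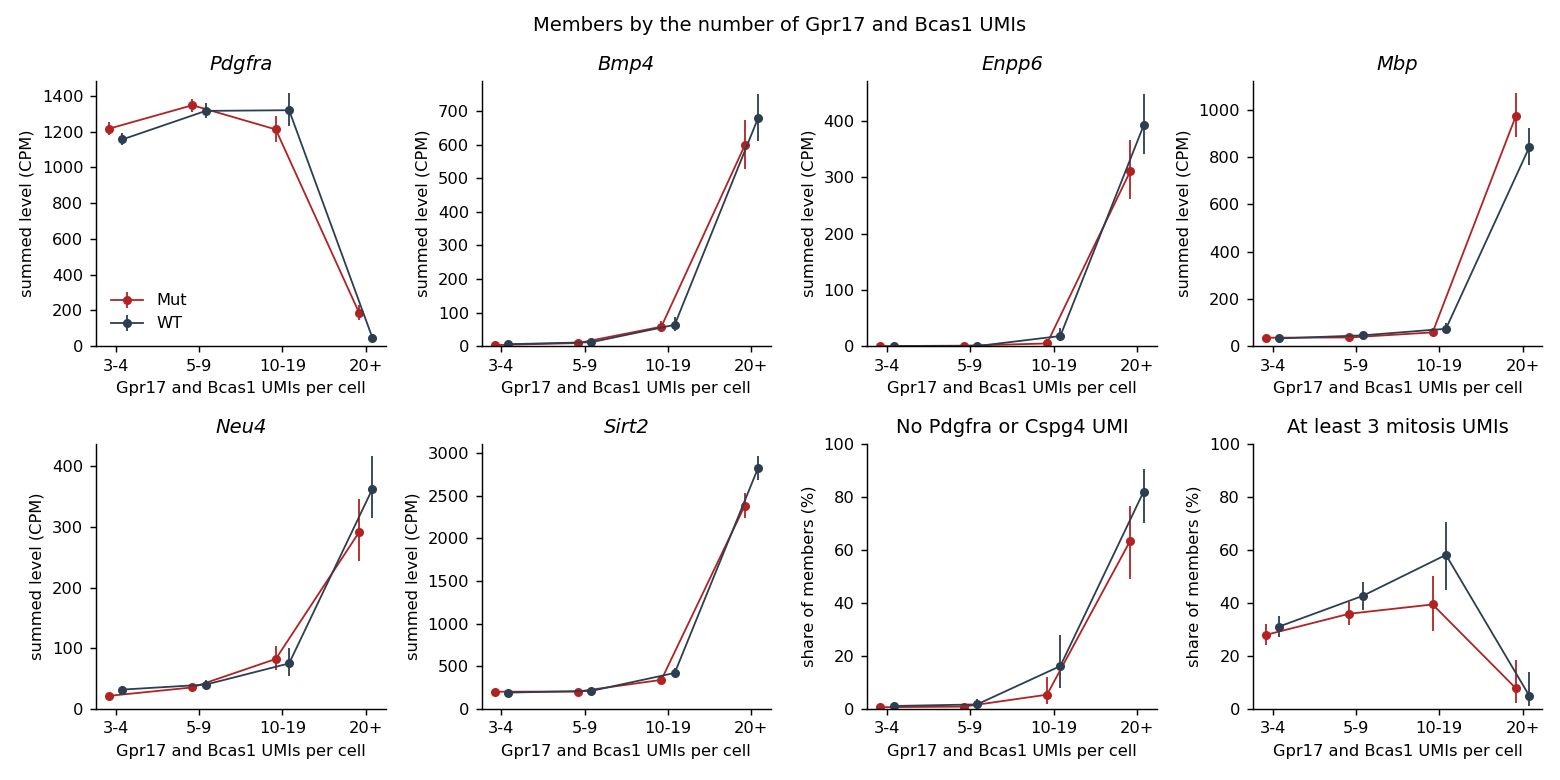
Gpr17 and Bcas1 cells grouped by their number of Gpr17 and Bcas1 UMIs, from 3 to 4 up to at least 20 (horizontal axis), for Mut (red) and WT (dark). The first 6 panels give summed levels in CPM and the last 2 the percentage of cells without a Pdgfra or Cspg4 UMI and with at least 3 mitosis UMIs, with 95% counting intervals as bars. In both libraries the range of at least 20 UMIs stands apart, with Mbp at 975 CPM in Mut and 842 CPM in WT.

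A cell in the last range usually lacked precursor RNA. Among members with at least 20 Gpr17 and Bcas1 UMIs, no UMI of Pdgfra or Cspg4 was found in 63.5% in Mut (33 of 52 cells) and 82.0% in WT (50 of 61). In the range of 3 or 4 UMIs that share was 0.598% and 1.06%. The 2 readouts thus overlapped but did not pick out the same cells. Over all members, 45 cells in Mut and 72 in WT had no UMI of Pdgfra or Cspg4, whatever their Gpr17 and Bcas1 count. Of these, 33 and 50 had at least 20 Gpr17 and Bcas1 UMIs. The median depth of the 45 and 72 cells, 7126 UMIs in Mut and 7442.5 in WT, was above that of all members. With each cell thinned to 2000 UMIs, 10.8% of members in Mut and 13.9% in WT had no UMI of Pdgfra or Cspg4. So had 6.23% and 6.28% of resting precursors at that depth. How far depth set which members lacked these UMIs was not tested. The doublet caller marked 4 of the 45 cells in Mut and 8 of the 72 in WT.

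These Pdgfra-free and Cspg4-free members had the genes of the committed stage and the first genes of myelin. The split uses measured counts and was made after the levels were seen, so that the values describe it and support nothing else. Bmp4 was at 641 CPM (558 to 732) in Mut and 605 CPM (544 to 671) in WT, against 17.7 and 14.7 CPM in members with Pdgfra or Cspg4. Enpp6, a choline phosphodiesterase of newly formed oligodendrocytes, was at 314 and 327 CPM, against 4.89 and 4.31 CPM, although the rule allowed at most 1 of the 5 late genes. Mbp was at 1155 CPM in Mut and 743 CPM in WT, against 43.8 and 43.9 CPM. All 3 were higher in the same cells of both libraries, and Bmp4 and Neu4 were there at or near the level of newly formed oligodendrocytes. Neu4 had 282 and 305 CPM, against 38.0 and 41.1 CPM in members with Pdgfra or Cspg4. Gpr17, which the rule used, had 2177 and 1665 CPM, above the 1043 and 1196 CPM of newly formed oligodendrocytes. Mag, the myelin-associated glycoprotein, separated this set from newly formed oligodendrocytes, as the rule makes it do.

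**Figure D2:**
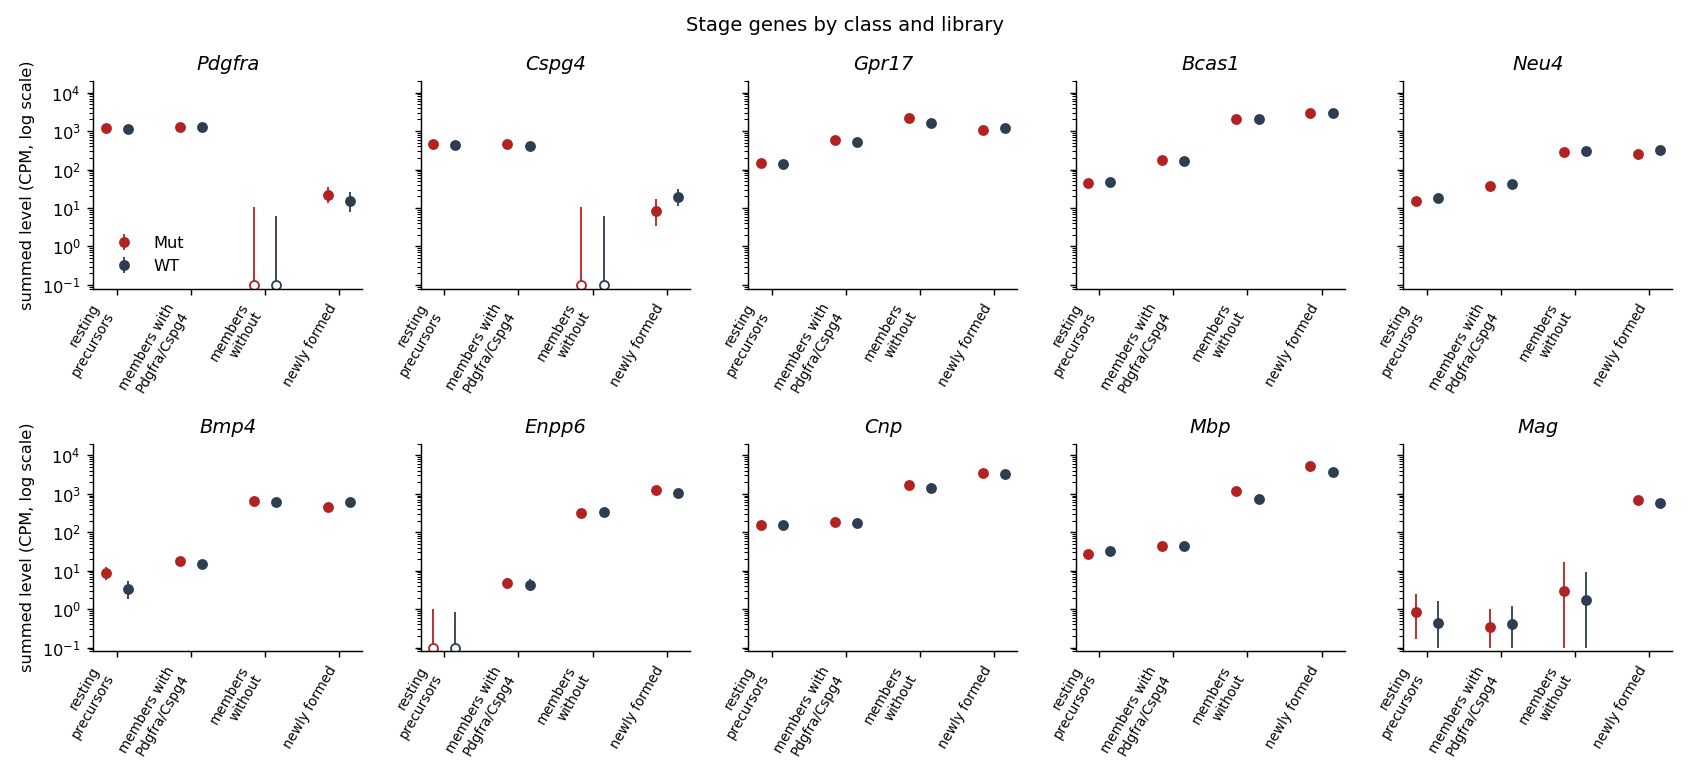
Summed level in CPM on a log axis of 10 stage genes in resting precursors, members with a Pdgfra or Cspg4 UMI, members without, and newly formed oligodendrocytes, for Mut (red) and WT (dark), with 95% counting intervals as bars and open circles for a count of 0. Members with Pdgfra or Cspg4 lie near resting precursors for Cnp and above them for Bmp4, at 17.7 CPM in Mut and 14.7 CPM in WT, against 8.63 and 3.34 CPM, and members without lie near newly formed oligodendrocytes for Bmp4 and Neu4.

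Beyond the markers, genes of varied roles set the Pdgfra-free members apart from the other members. Of 10575 genes with at least 50 UMIs, 212 (2.0%) were at least 2-fold higher in both libraries than in members with Pdgfra or Cspg4, and 886 (8.38%) were at least 2-fold lower. The Pdgfra-free members summed to only 340315 UMIs in Mut and 586650 in WT, against 8585663 and 7418429 in the others. A gene of low level could thus pass the limit of 50 UMIs with few or no UMIs in them. The part of this in the larger number of lower genes was not tested. Epcam, an epithelial cell adhesion molecule, was at 182 CPM in Mut and 177 CPM in WT, against 1.86 and 3.77 CPM. The transcript 9630013A20Rik, with no protein named in the files, was at 253 and 208 CPM, against 7.80 and 8.90 CPM. Cdkn1c, an inhibitor of the cell cycle, was at 403 and 443 CPM, against 34.9 and 44.3 CPM. Among the lower genes, Adora1, an adenosine receptor, had no UMI in either library, where 3 UMIs would be 8.82 CPM in Mut and 5.11 CPM in WT, against 70.1 and 64.8 CPM. Chl1, a cell adhesion molecule, was at 17.6 and 5.11 CPM, against 295 and 310 CPM, and Mmp15, a membrane metalloprotease, was at 20.6 and 20.5 CPM, against 332 and 323 CPM. All 3 were low in both libraries in cells without Pdgfra and Cspg4.

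The stage lists described the same split. Of 13 committed markers counted, 13 were higher in both libraries and 10 at least 2-fold, with a median log2 ratio of 2.11 in Mut and 2.20 in WT. Over all genes 25.2% were higher and 47.6% lower in both libraries, and the medians were -0.16 and -0.17. The committed list holds Gpr17, Bcas1 and Sox10, which the rule used, and the precursor list holds Pdgfra and Cspg4, which made the split. Of 12 newly formed markers, 11 were higher, with a median of 3.02 and 2.96, and of 14 precursor markers 10 were lower, with a median of -1.15 and -1.50. All 25 genes of G2 and mitosis were at least 2-fold lower, with a median of -3.80 and -3.20, and all 26 genes of S phase were lower. Of 18 genes of the cell cycle exit list, 3 were higher in both libraries, among them Cdkn1c, and 12 were lower, with a median of -0.68 and -0.53. At least 3 mitosis UMIs were found in 2.22% of these members in Mut and 9.72% in WT. Of 22 glutamate and GABA receptor genes counted, 18 were lower in both libraries, as were 25 of 31 ion channel and transporter genes, while 39 of 41 ribosomal protein genes were higher. Markers of vascular cells and fibroblasts summed over their list to 61.7 CPM in Mut and 472 CPM in WT in these members, against 309 and 278 CPM in members with Pdgfra or Cspg4. The part of vascular RNA in the WT values was not tested.

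Some genes were higher in the Pdgfra-free members than in either neighbour, and their number over all genes was not counted. Cdkn1c was among them, at 403 CPM in Mut and 443 CPM in WT, against 243 and 361 CPM in newly formed oligodendrocytes. Slc27a3, of the fatty acid transport protein family, had 79.3 CPM in Mut and 95.5 CPM in WT, against 13.4 and 13.1 CPM in members with Pdgfra or Cspg4 and 17.7 and 15.1 CPM in newly formed oligodendrocytes. Tmsb4x, which encodes the actin-binding peptide thymosin beta 4, had 12080 and 13134 CPM, against 4132 and 4237 CPM in members with Pdgfra or Cspg4 and 4999 and 5590 CPM in newly formed oligodendrocytes. Sipa1l2, a regulator of Rap GTPases, had 94.03 and 69.9 CPM, against 22.0 and 22.2 CPM and 23.5 and 35.0 CPM in the same 2 classes. Each was highest, in both libraries, in the Pdgfra-free members among these 3 classes. Over newly formed oligodendrocytes, 47 genes of 4065 (1.16%) were at least 2-fold higher in both libraries and 98 (2.41%) lower. Ramp1, a receptor activity-modifying protein, led with Pcp4 among the higher ones and had 379 and 321 CPM, against 56.5 and 52.4 CPM.

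The promoters of the leading genes are shown because the members carry Sox10 and Olig RNA, whose products bind short motifs. Of the 15 genes with the largest ratio between Pdgfra-free members and the rest, 10 had an entry among RefSeq promoters of build GRCm38.p6. The 250 bases before the start were searched for ACAAAG and ACAATG, core motifs of SOX factors, on both strands (CTTTGT and CATTGT on the other), which do not overlap each other in these windows. At least 1 was found in 4 of the 10 (40.0%), in 40 of 160 matched promoters of the 2-fold higher genes (25%) and in 6887 of all 27025 promoters (25.5%). CAGCTG, an E-box, was found in 20%, 13.1% and 12.8%. The 2-fold higher genes therefore held either motif at about the rate of all promoters, and a match is a description of the letters only. The 4 windows with a SOX motif are Enpp6 at chr8:46986637-46986886 on the plus strand, Sirt2 at chr7:28766502-28766751 on the plus strand, Plxnb3, a receptor for semaphorins, at chrX:73756853-73757102 on the plus strand, and 9630013A20Rik at chr14:84476425-84476674 on the minus strand. They are written 5' to 3' in the direction of the gene, with the motifs in capitals. The motif starts 219 bases before the start in Enpp6, 41 in Sirt2, 207, 162 and 42 in Plxnb3, and 59 in 9630013A20Rik.
Enpp6: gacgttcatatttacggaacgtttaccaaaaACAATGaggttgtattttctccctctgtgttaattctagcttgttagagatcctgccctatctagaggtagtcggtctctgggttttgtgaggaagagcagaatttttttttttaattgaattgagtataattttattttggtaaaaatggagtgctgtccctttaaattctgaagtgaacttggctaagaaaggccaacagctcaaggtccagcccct
Sirt2: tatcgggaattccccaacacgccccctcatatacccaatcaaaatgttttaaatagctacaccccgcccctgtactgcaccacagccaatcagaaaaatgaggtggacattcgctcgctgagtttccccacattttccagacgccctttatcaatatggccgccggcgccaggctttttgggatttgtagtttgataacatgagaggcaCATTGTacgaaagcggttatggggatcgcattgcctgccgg
Plxnb3: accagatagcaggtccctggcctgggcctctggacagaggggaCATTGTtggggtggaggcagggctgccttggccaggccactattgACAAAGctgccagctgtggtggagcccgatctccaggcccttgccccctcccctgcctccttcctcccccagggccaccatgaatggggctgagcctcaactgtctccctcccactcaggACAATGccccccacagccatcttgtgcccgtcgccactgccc
9630013A20Rik: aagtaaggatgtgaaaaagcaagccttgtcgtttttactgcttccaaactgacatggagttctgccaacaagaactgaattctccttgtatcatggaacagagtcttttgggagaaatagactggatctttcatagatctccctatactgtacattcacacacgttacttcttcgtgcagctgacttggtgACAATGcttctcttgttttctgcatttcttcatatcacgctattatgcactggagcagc

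Taken as a whole, the members differed from resting precursors mainly in genes of dividing cells and in the selecting genes. Over resting precursors, 223 of 11463 genes (1.95%) were at least 2-fold higher in both libraries and 36 (0.314%) at least 2-fold lower. The 12 highest were all cell cycle genes, led by Ube2c, a ubiquitin carrier of the mitotic exit machinery, with 314 CPM in Mut members and 394 CPM in WT members, against 6.40 and 7.79 CPM. Resting precursors were defined by at most 2 mitosis UMIs, so this contrast is fixed by the classes and is no result. Among members with at most 2 mitosis UMIs, 19 of 10615 genes (0.179%) were at least 2-fold higher in both libraries, among them Bcas1, Bmp4, Gpr17, Mbp and Neu4, and 73 (0.688%) lower. When members without Pdgfra or Cspg4 were also left out, 5 of 10511 (0.0476%) were higher, among them Bcas1, Gpr17, Neu4 and Bmp4, and 63 (0.599%) lower. The rise of Gpr17 and Bcas1 is likewise fixed by the classes, since resting precursors held at most 2 of their UMIs and members at least 3. The lower genes were led by vessel genes such as Col4a1, a basement membrane collagen, with 44.3 CPM in Mut members and 35.5 CPM in WT members, against 112 and 128 CPM in resting precursors. Of the genes named among the lowest, Rasl11a, a small GTPase, was above its level of free RNA, with 106 and 150 CPM in members, against 163 and 265 CPM in resting precursors. Summed vascular and fibroblast markers were 299 and 292 CPM in members, against 825 and 804 CPM in resting precursors, and their part in the lower genes was not tested.

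Few genes of the stage lists differed 2-fold between members and resting precursors, and more did in the lists of mitosis and of other cells. Of 13 committed markers counted, 12 were higher in both libraries and 4 at least 2-fold, and of 13 newly formed markers 10 were higher and 3 at least 2-fold. The committed markers include Gpr17 and Bcas1, whose rise the classes fix. Over all genes 35.1% were higher and 32.6% lower by any amount in both libraries. Of 14 precursor markers, 5 were higher, 6 were lower and 0 differed 2-fold. Pdgfra and Cspg4, which define the resting precursors, are among these 14. All 25 genes of G2 and mitosis were at least 2-fold higher in both libraries, which the classes fix, with a median log2 ratio of 3.41 in Mut and 3.76 in WT. Of 12 vascular and fibroblast markers 7 were at least 2-fold lower, with a median of -1.11 and -1.25, as were all 4 red blood cell genes. Against newly formed oligodendrocytes the members differed more, with 1475 of 10787 genes (13.7%) at least 2-fold higher in both libraries and 392 (3.63%) lower, while 57.7% were higher and 24.0% lower by any amount. Cspg5, a neural chondroitin sulfate proteoglycan, had 2053 and 1918 CPM in members, against 108 and 101 CPM in newly formed oligodendrocytes. Kcnd2, a potassium channel subunit, had 225 and 207 CPM, against 12.95 and 6.99 CPM. Cnp, an enzyme of myelin, had 242 and 264 CPM, against 3525 and 3204 CPM, and Nfasc, an adhesion molecule of axon contact, had 64.5 and 59.96 CPM, against 1501 and 1256 CPM. Of 14 precursor markers, 10 were at least 2-fold higher, and 11 of 14 committed markers and 11 of 13 newly formed markers were at least 2-fold lower in members. Newly formed oligodendrocytes were defined by at least 2 of the 5 late genes and members by at most 1. Lower levels of these late genes in members are therefore fixed by the classes and are no result.

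About 1 in 3 members had RNA of dividing cells. At least 3 UMIs over 8 mitosis genes were found in 356 of the Mut members, 31.3% (28.6 to 34.1), and in 370 of the WT members, 35.1% (32.2 to 38.1). In the resting and dividing precursors together, with at least 3 UMIs of Pdgfra and Cspg4 but at most 2 of Gpr17 and Bcas1, the share was 24.3% and 23.4%. By range of Gpr17 and Bcas1 UMIs it was 27.9%, 35.9%, 39.4% and 7.69% in Mut and 31.0%, 42.6%, 58.1% and 4.92% in WT, so that dividing cells were frequent up to 19 such UMIs and rare from 20 on. After thinning to 2000 UMIs the share among members was 23.6% in Mut (7 cells left out) and 28.4% in WT (4 left out), against 15.9% and 16.1% in the precursors. The thinning came after the classes were set. Members with at least 3 mitosis UMIs had median depths of 9043.5 UMIs in Mut and 8958.5 in WT, against 6136 and 5833.5 in the other members. The part of depth in passing the limit of 3 Gpr17 and Bcas1 UMIs was not tested.

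The limits of the rule cut through gradual values. Cells with exactly 3 Gpr17 and Bcas1 UMIs, just inside, made up 23.9% of members in Mut and 31.2% in WT. Their Neu4 level was 18.2 and 29.1 CPM, against 13.1 and 17.0 CPM in the 346 and 403 cells with 2 such UMIs, just outside. Pdgfra was at 1189 and 1171 CPM inside, against 1106 and 1062 CPM outside. At the other limit, 57 Mut members and 64 WT members had 1 late gene, with Mbp at 865 and 718 CPM, against 4389.6 and 3136 CPM in the 32 and 47 cells with 2 late genes. Pdgfra was at 384 and 350 CPM inside, against 2.67 and 21.5 CPM outside.

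RNA of other cell types was present at a low level. Free RNA of the cell suspension was read from barcodes of 10 to 100 UMIs, and in neither library was any of 7 astrocyte, 7 microglia and macrophage, 7 vascular, 4 ependyma and choroid plexus or 2 red blood cell markers above its free RNA level in the members. Of 9 neuron markers 2 were above it in both libraries, Dcx, a microtubule-associated protein of young neurons, with 176 and 165 CPM, and Snap25, a synaptic fusion protein, with 66.2 and 57.5 CPM. The 7 astrocyte markers summed to 1148 CPM in Mut members and 957 CPM in WT members, against 2737 and 2341 CPM in free RNA. The microglia markers summed to 168 and 107 CPM in members, the vascular markers to 183 and 192 CPM, and those of ependyma and choroid plexus to 55.8 and 4.25 CPM, with Ttr the highest in Mut. The red blood cell markers summed to 464 and 1077 CPM. Ccdc153 of ciliated ependymal cells was at 0 in both libraries, and Neurod6 of excitatory neurons was at 0 in Mut and at 0.874 CPM in WT. More than 5 UMIs of the astrocyte markers were found in 29.0% of members in Mut and 24.3% in WT.

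The share of Gpr17 and Bcas1 cells was somewhat higher in Mut, and the share of Pdgfra-free cells among them was lower. Members were 11.2% of kept barcodes in Mut (10.6 to 11.9) and 9.56% in WT (9.02 to 10.1), a ratio of 1.18 (1.08 to 1.28). Of all cells of the lineage, 1983 in Mut and 2155 in WT, they were 57.3% and 48.9%, and resting precursors were 29.9% and 36.5%. In female cells members were 12.3% of barcodes in Mut and 10.4% in WT, a ratio of 1.19 (1.05 to 1.35). In male cells they were 10.5% and 10.3%, a ratio of 1.02 (0.875 to 1.19). Within the lineage the ratio was 1.16 in female and 1.11 in male cells, with the male interval (0.956 to 1.29) on both sides of 1. The pooled difference in the share of barcodes was thus not seen in male cells at this depth, and whether the sexes differ was not tested. More of these cells and fewer of the other cells recovered cannot be told apart in a share of barcodes. The Mut library was deeper per barcode, and with every barcode thinned to 3000 UMIs before the rule was applied the ratio was 1.22.

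**Figure D3:**
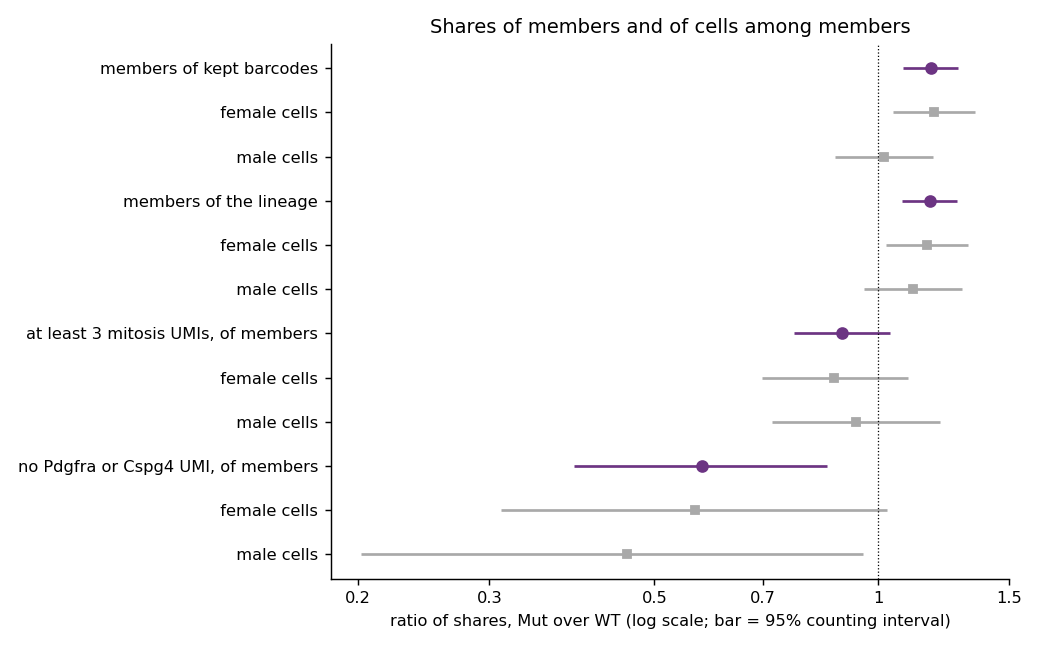
Ratio of shares, Mut over WT, on a log axis with 95% counting intervals, for members among kept barcodes, members in the lineage, dividing members and members without Pdgfra or Cspg4 UMIs, over all cells (circles) and within female and male cells (squares). The ratio of Pdgfra-free members, 0.580 over all cells, is below 1 in each sex, and the ratio of members among kept barcodes is 1.02 in male cells.

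Among the members, cells without a Pdgfra or Cspg4 UMI were 3.96% in Mut (45 of 1136; 2.90 to 5.26) and 6.83% in WT (72 of 1054; 5.38 to 8.53), a ratio of 0.580 (0.390 to 0.853). It was 0.566 in female cells (24 and 26 cells; 0.311 to 1.03) and 0.459 in male cells (10 and 33 cells; 0.202 to 0.954). Both sexes pointed the same way, although the female interval reached past 1. Of the whole lineage the Pdgfra-free members were 2.27% in Mut and 3.34% in WT, a ratio of 0.679 (0.457 to 0.999), and of kept barcodes 0.446% and 0.653%, a ratio of 0.682 (0.459 to 1.003). Newly formed oligodendrocytes were 3.28% of the lineage in Mut and 3.48% in WT, a ratio of 0.942 (0.665 to 1.33), with an interval that holds 1. Cells with at least 20 Gpr17 and Bcas1 UMIs were 4.58% of members in Mut and 5.79% in WT, a ratio of 0.791 (0.536 to 1.16). The ratio of dividing members was 0.893 (0.770 to 1.04), and 0.830 (0.701 to 0.983) after thinning.

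Bmp4, Neu4, Enpp6 and Bcas1 had lower sums over all members in Mut, and within the Pdgfra-free cells their ratios lay between 0.925 and 1.06. Bmp4 was at 41.5 CPM in Mut members and 58.0 CPM in WT members, a ratio of 0.715 (0.622 to 0.822), with 0.697 in female and 0.612 in male cells. Within Pdgfra-free members the ratio was 1.06 (0.890 to 1.26), and within the others 1.20 (0.936 to 1.56). Among Pdgfra-free cells it was 1.11 in female and 0.803 in male cells, on 119 and 56 UMIs in Mut. Neu4 had a ratio of 0.782 (0.685 to 0.893) over all members, 0.925 (0.714 to 1.19) within the Pdgfra-free members and 0.924 in the others. Enpp6 had a ratio of 0.597 (0.482 to 0.737) over all members and 0.961 (0.751 to 1.22) within Pdgfra-free ones, and Bcas1 of 0.818 (0.772 to 0.867) and 1.04. Cdkn1c had a ratio of 0.665 (0.587 to 0.754), which was 0.518 among female and 0.914 among male cells, and 0.788 (0.672 to 0.924) within members with Pdgfra or Cspg4. Within Pdgfra-free members Gpr17 was higher in Mut, with a ratio of 1.31 (1.19 to 1.44), as were Mbp with 1.55 (1.35 to 1.78) and Myrf with 1.76 (1.18 to 2.60). By sex these ratios had Gpr17 at 1.38 in female and 0.923 in male cells, Mbp at 1.11 and 2.91, and Myrf at 1.03 and 2.57. They rest on 24 female and 10 male Pdgfra-free cells in Mut, and whether the sexes differ was not tested. Over all members Gpr17 had a ratio of 1.08 (1.04 to 1.13), Sox10 of 1.12 and Pdgfra of 1.06, the last with 0.989 in female cells.

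Across all genes the 2 libraries were near each other in these cells. Of 12119 genes counted, 10 (0.0825%) were at least 2-fold higher in Mut and 7 (0.0578%) at least 2-fold lower. At 1.5-fold these were 47 (0.388%) and 35 (0.289%). Several of the 17 past 2-fold are known from other cells, such as Ttr of the choroid plexus, Lyz2 and Pf4 of macrophages and the haemoglobin genes Hbb-bs and Hbb-bt, and 13 of the 17 did not pass their free RNA level in the library where they were higher. Among genes above that level and with 1 direction in both sexes, Rpl29, a ribosomal protein gene at chr9:106429454-106431568 (build GRCm38), had 272 CPM in Mut members and 653 CPM in WT members, a ratio of 0.417. It had 423 and 654 CPM in female cells, and 40.5 and 653 CPM in male cells. Tomm22, a receptor of mitochondrial protein import at chr15:79670861-79673400, had 60.2 and 129 CPM, a ratio of 0.467. Rpl29, Tomm22, Rps2 and the histone genes have near-identical copies in the genome, so their counts are uncertain. Tmem179, a membrane protein gene at chr12:112500189-112516747, had 67.3 CPM in Mut members and 119 CPM in WT members, a ratio of 0.566, and was lower in both sexes and in resting precursors.

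The other genes named by size differed less. The linker histone gene Hist1h1e had 277 CPM in Mut members and 471 CPM in WT members, a ratio of 0.589, Rasl11a had 0.711, the survivin gene Birc5 had 0.770 and Rps2 had 0.777. Birc5 was at a log2 ratio of -0.02 among members with at most 2 mitosis UMIs. It is itself among the mitosis genes that set this limit, so that value is partly set by the split and is no result. Among the higher genes, the histone gene Hist1h2ap had 145 and 103 CPM and a ratio of 1.40, and Npc1, a lysosomal cholesterol transporter, had 108 and 77.5 CPM and a ratio of 1.40. Npc1 had nearly equal levels in female cells, 98.7 and 98.0 CPM, and 127 and 65.1 CPM in male cells. Grm5, a metabotropic glutamate receptor, had 118 and 90.6 CPM and a ratio of 1.30, and Dctn4, a dynactin subunit, had 140 and 108 CPM and a ratio of 1.29. Of the 24 genes, 23 had the same direction in resting precursors, the exception being Hist1h2ap with a log2 ratio of -0.04. Rpl29 was at -1.15 there, Tomm22 at -1.16 and Npc1 at 0.42 on the same scale.

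**Figure D4:**
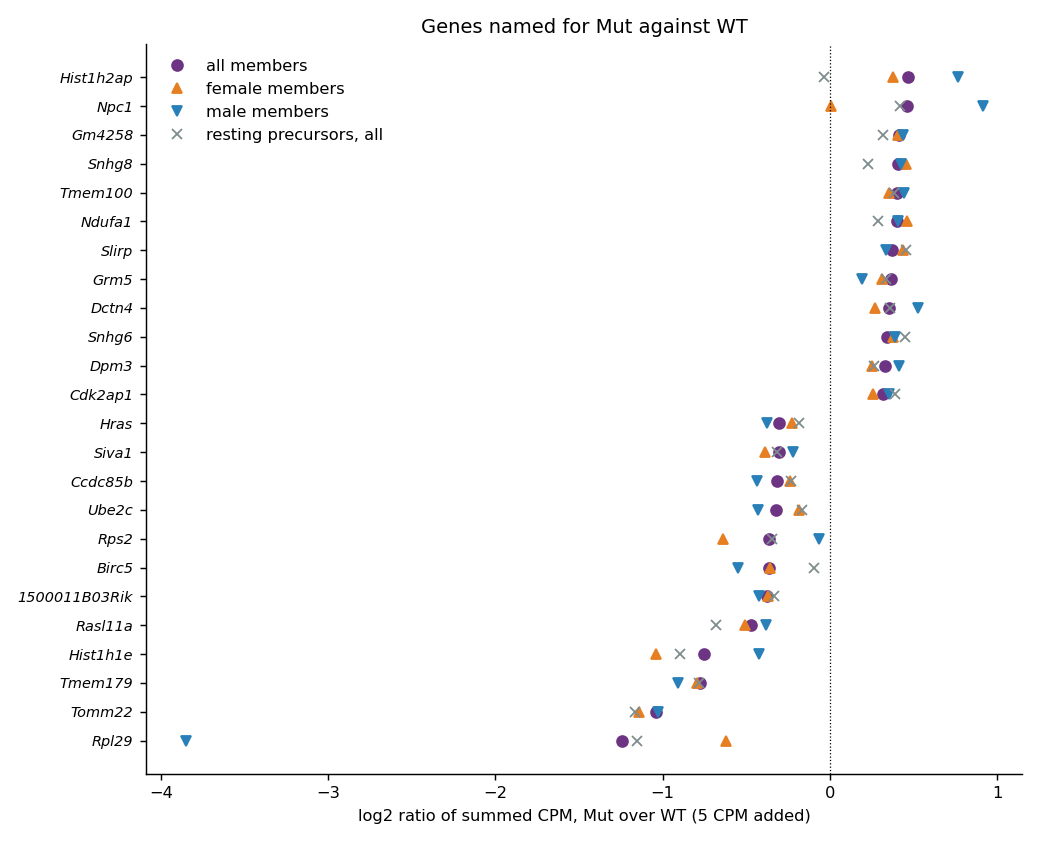
Log2 ratio of summed levels, Mut over WT after 5 CPM was added, of the 12 highest and 12 lowest genes in members (circles), female members (upward triangles), male members (downward triangles) and resting precursors (crosses). Rpl29 in male members lies farthest from 0, at 40.5 CPM in Mut and 653 CPM in WT.

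Katnal2 itself, at chr18:76977148-77047308 on the minus strand, was at a low level in the members. It had 6.27 CPM in Mut members (56 UMIs) and 6.25 CPM in WT members (50 UMIs), a ratio of 1.004 (0.674 to 1.501). The ratio was 1.69 (0.899 to 3.37) in female and 0.569 (0.245 to 1.22) in male cells, both with intervals on either side of 1. Without knowledge of the mutated part, these counts do not check the genotype labels. Of 20 genes of katanins and other microtubule-severing proteins counted, 14 were higher and 6 lower in Mut, with a median log2 ratio of 0.03, next to 0.04 over all genes. The katanin subunit gene Katna1 had 24.4 CPM in Mut members and 19.9 CPM in WT members, and the fidgetin-like gene Fignl1 had 20.6 and 29.5 CPM.

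Lists of genes differed from the median of all genes by small amounts. By direction, 59.8% of all genes were higher in Mut and 40.2% lower, and list counts are to be read beside these. Of 14 precursor markers, 12 were higher in Mut, with a median log2 ratio of 0.09. It was 0.04 in female and 0.16 in male cells, beside 0.03 and 0.04 over all genes. Of 13 committed markers 9 were lower, with a median of -0.08, and of 13 newly formed markers 9 were lower, with a median of -0.12. These 2 medians were -0.18 in female cells and 0.01 and 0.11 in male cells. All 25 genes of G2 and mitosis were lower in Mut, with a median of -0.16. It was -0.19 among female cells, -0.22 among male cells and -0.03 among members with at most 2 mitosis UMIs, where the genes with at least 50 UMIs in those cells alone had -0.21. That limit is set on mitosis genes, so values within it are partly set by the split. With every barcode thinned to 3000 UMIs before the rule was applied, the median of the mitosis list turned to 0.024. The late stage list thus lay on opposite sides of 0 in the sexes, and the mitosis list on 1 side in the sexes but not after thinning. Of 38 nuclear genes of oxidative phosphorylation 33 were higher, with a median of 0.15. Atp5mpl, of the ATP synthase, had 285 CPM in Mut members and 189 CPM in WT members. Of 13 genes of the mitochondrial genome 11 were lower, with a median of -0.23, beside a median mitochondrial share of 3.29% in Mut members and 4.01% in WT members. The nuclear and mitochondrial genes of respiration thus lay on opposite sides of 0. Of 25 genes of cholesterol synthesis 22 were higher, with a median of 0.14, among them Lss, lanosterol synthase, with 42.7 and 32.2 CPM. The median of this list was 0.17 in female cells and 0.04 in male cells, the latter equal to that of all genes there. The desaturase gene Scd2, which is in the same list, had 847 and 662 CPM. Of 25 Notch genes 21 were higher, with a median of 0.13, and Hes5 had 490 and 411 CPM. The Notch median was 0.02 in female cells, near that of all genes there, and 0.15 in male cells. Of 26 Wnt genes 23 were higher, with a median of 0.13, and of 22 immediate early and stress genes 19, with a median of 0.19, and Fos had 350 and 291 CPM. Of 41 ribosomal protein genes 26 were lower, with a median of -0.05. In female and male cells the medians were 0.03 and -0.07 for ribosomal proteins and 0.19 and 0.13 for oxidative phosphorylation. They were -0.19 and -0.31 for the mitochondrial genome, 0.11 and 0.10 for Wnt genes and 0.14 and 0.15 for immediate early and stress genes.

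Resting precursors of the same libraries had similar medians for oxidative phosphorylation (0.16), cholesterol synthesis (0.19), the mitochondrial genome (-0.19) and immediate early genes (0.27), and so had all barcodes outside the lineage (0.17, 0.20, -0.16 and 0.16). The committed markers had a median of 0.07 and the mitosis genes of -0.02 in resting precursors, but that class leaves out cells with such RNA by its definition. Of 12 astrocyte markers, 11 were higher in Mut members, with a median of 0.37. It was 0.15 in female and 0.0029 in male members, both below the pooled value, and 0.23 without doublets. The part of astrocyte RNA in the lists was not tested.

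**Figure D5:**
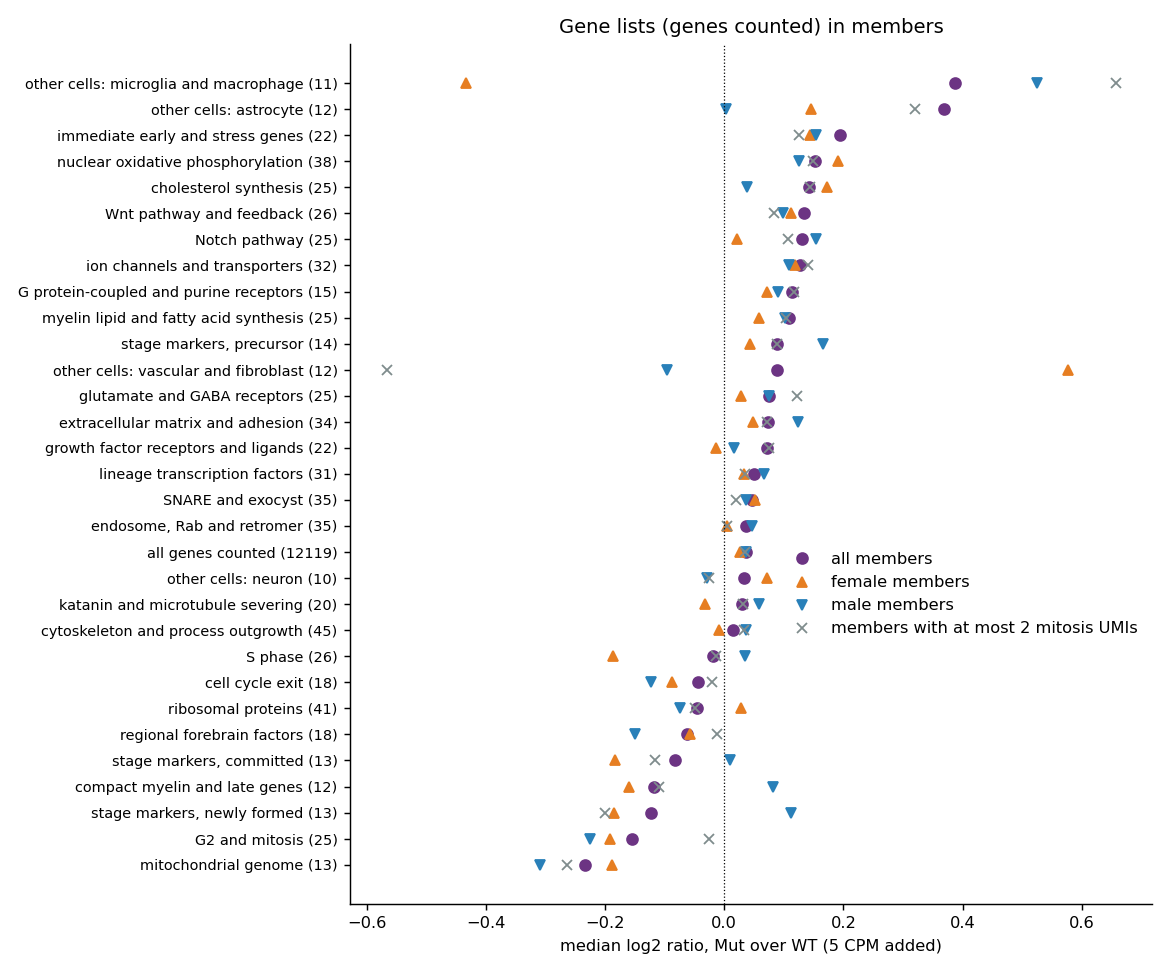
Median log2 ratio, Mut over WT after 5 CPM was added, of gene lists in all members (circles), female members (upward triangles), male members (downward triangles) and members with at most 2 mitosis UMIs (crosses), with the number of genes counted in brackets. The lists of red blood cell and of ependyma and choroid plexus genes are not drawn. Lists of the cell's own genes lie between -0.31 and 0.19, and the lists that spread most are those of microglia and vascular cells.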

How the data were processed

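The authors deposited raw UMI counts per gene and barcode as sparse matrices of 32285 genes, unfiltered for cells. Per the file headers, Cell Ranger 4 made these count matrices. Cell Ranger, STAR and build GRCm38 were named, per the submitters' processing notes, and the annotation release is not given in the sources used here. Gene positions came from GENCODE M21 of the same build, in which 32158 identifiers were found. From the counts, barcodes were filtered and classed by the rule given above, and UMIs were summed per class and library and divided by their total (CPM). Genes with at least 50 UMIs over the 2 classes compared were counted, log2 ratios were taken after adding 5 CPM, and 2-fold was the limit, with no test since each genotype has 1 library. Shares have Clopper-Pearson intervals, levels exact Poisson intervals and ratios exact conditional binomial intervals. The limit for a count of 0 is 3 counts. Doublets were scored with Scrublet in scanpy 1.11.5, marked at 0.8% per 1000 barcodes, and kept. The genes named were the selecting genes and markers, the 12 highest and 12 lowest in each class contrast at 50 CPM, and for Mut against WT the 12 highest and 12 lowest at 100 CPM with 1 direction in both sexes and above free RNA, along with up to 4 genes per list. Some genes that these rules name or that a list counts are not reported here. Members and lists were chosen with earlier results of these data known. The contrast without dividing cells, the split by Pdgfra and Cspg4 and the genes named from it were added after the values were seen. The class sums were tested on simulated data. Software was Python 3.11.15, numpy 2.4.6, scipy 1.17.1, pandas 2.3.3, matplotlib 3.10.9 and, for one alternative scaling, edgeR 4.0.16 in R 4.3.3.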

Additional observations from a re-analysis of the deposited data

Results flagged for a closer look

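The ratio of Mut to WT had opposite signs in female and male members for a few lists and genes, each with 1 library per genotype and no test of the difference between the sexes. Of the lists, the 13 newly formed markers had a median log2 ratio of -0.18 in female and 0.11 in male members. The 11 microglia and macrophage markers had -0.43 and 0.53, and the 4 red blood cell genes -1.56 and 2.19. Of the stage markers, Matn4, an extracellular matrix protein of precursors, had -0.95 in female members, with 202 CPM in Mut and 395 CPM in WT, and 1.31 in male members, with 436 and 173 CPM. Mbp had -0.63 in female and 0.52 in male members, and Chn2, a Rac GTPase-activating protein, -0.57 and 0.38. Katnal2 had 0.42 and -0.44, on few UMIs.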

How the results depend on the processing

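No paired analysis was possible because each genotype has 1 library. The share of members, Mut over WT (1.18), was 1.42 with at least 5 Gpr17 and Bcas1 UMIs and 1.02 in male cells, and lay between 1.11 and 1.22 under the other alternatives. The share of Pdgfra-free members, Mut over WT (0.580), lay between 0.459 and 0.636 under these alternatives. With members thinned to 2000 UMIs after classing, which is not in that range of alternatives, the 2 shares were closer, 10.8% in Mut and 13.9% in WT. The ratio for dividing members (0.893) lay between 0.855 and 0.934, beside 0.830 with members thinned to 2000 UMIs. The count of genes 2-fold apart between Mut and WT (17) was 10 without doublets, 36 with at least 5 Gpr17 and Bcas1 UMIs, 45 in female and 30 in male cells, 41 with 1 CPM and 5 with 20 CPM added, 10 without members holding over 5 UMIs of other cell types, 82 at 1.5-fold and 26 with at most 2 mitosis UMIs. That of members over resting precursors (259) was 123 with 20 CPM added, 460 at 1.5-fold and 92 with at most 2 mitosis UMIs, and that of the Pdgfra-free members over the others (1098) was 507 and 2236 under the first 2 of these. Signs turned for the red blood cell list without doublets (0.29), in male cells (2.19) and with at most 2 mitosis UMIs (1.07), the mitosis list (0.024) and Ube2c (0.015) after thinning to 3000 UMIs, Pdgfra (-0.016) and the microglia list in female cells (-0.27 over genes with at least 50 UMIs in female cells alone, and -0.43 over those counted in all members), and the newly formed list (0.11) in male cells. The cause was not tested. With at most 45 and 72 Pdgfra-free cells, counting error is widest for their values.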
